A study of Bos taurus with 6 samples.

Results

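The contractile genes described here are 6 entries of a list of 232 genes that the submitters found to differ between the muscle of 2 cattle breeds. They are the myosin heavy chain genes MYH3, MYH4 and MYH13, the myosin light chain gene MYL3, the actin gene ACTC1, and LOC100337233, which the list describes as an immunoglobulin-like and fibronectin type III domain protein and annotates to the I band of the sarcomere. All 6 were found by their symbol. They were picked from that list for their part in contraction, and the list itself was made from the difference between the breeds. Their breed differences are therefore given as a description, with no test.

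The groups were 3 Angus beef cattle and 3 Chinese Luxi cattle, all 18 months old, with 1 muscle RNA library each. The labels name neither the muscle that was sampled nor the sex of the animals, and nothing in them describes a treatment. The labelled tissue could be checked only against listed genes. The striated muscle genes MYL3 and LOC100337233 had breed means of 128 RPKM or more in both breeds. Both were picked for their part in contraction, so this check is limited. Listed sequence fragments matching the muscle genes FHL1 and KLHL41 had means of 64.0 RPKM or more in both breeds. A fragment matching myosin-7 was at 163 RPKM in Angus and 0 in Luxi. Muscle genes missing from the list were not analysed here. The deposited values are means over the 3 libraries of a breed. From these means the whole reads of each library were worked back as far as arithmetic allows, so a library is named here by its depth rank (deepest, middle or shallowest of its breed), and the sources used here do not say which animal it came from. Depth was 5429317 to 5736365 reads in the Angus libraries and 5799075 to 6047227 reads in the Luxi libraries. Levels are given as RPKM, reads scaled to gene length (per 1000 bases) and to library depth, which allows levels of genes of different length to be compared. Where several sets of whole reads gave the same means, the lowest and highest value over all of these solutions is printed.

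Muscle contracts when myosin heavy chains in thick filaments pull on actin in thin filaments, and light chains steady the lever arm of each myosin head. Mammals have several heavy chain genes whose proteins differ in speed. MYH7 serves slow fibres, MYH2, MYH1 and MYH4 serve increasingly fast fibres, MYH13 is a superfast form known from eye and larynx muscles, and MYH3 is the embryonic form, which returns in regenerating fibres. Species and muscles differ in which of these forms they use, and which ones the limb and trunk fibres of cattle use was not examined here. ACTC1 is the main actin of heart and is also made by developing skeletal muscle, where another actin replaces it after birth. In the RefSeq gene table of assembly ARS-UCD2.0, MYH13, MYH8, MYH4, MYH1, MYH2 and MYH3 follow each other in this order on 1 chromosome, with 1 further protein-coding gene between MYH4 and MYH1.

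By mean level, Angus was the higher breed for 4 of the 6 genes and Luxi for the other 2. Over all 232 listed genes, Angus was the higher breed for 63.4% and Luxi for 36.6%, so the split of the 6 genes stood near that of the list. MYH4 and MYH13, the fastest forms, were 28.2-fold and 29.3-fold higher in Angus, MYH3 and MYL3 were 2.74-fold and 2.62-fold higher in Angus, and ACTC1 and LOC100337233 were 3.47-fold and 2.68-fold higher in Luxi, from the RPKM columns of the authors' deposited table. The fold of MYH13 rested on 1 Angus library: with the deepest left out, its log2 ratio went from 4.87 to between -1.34 and -0.58, with Luxi the higher breed, and the median libraries gave -0.83 to 0.27. For MYH4 the log2 ratio was 0.49 to 5.40 with the middle Angus library left out. All 6 were at least 2-fold apart, as were 100% of the listed genes, since this was part of how the list was made. The smallest absolute log2 ratio on the list was 1.00 and the largest false discovery rate 9.67e-04, and genes beyond these limits were not analysed here. The median fold of the 6 genes was 3.11, against 2.66 over the 185 listed genes above 0 in both breeds, of which 2, MYH13 among them, had a larger fold than MYH4.

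**Figure D1:**
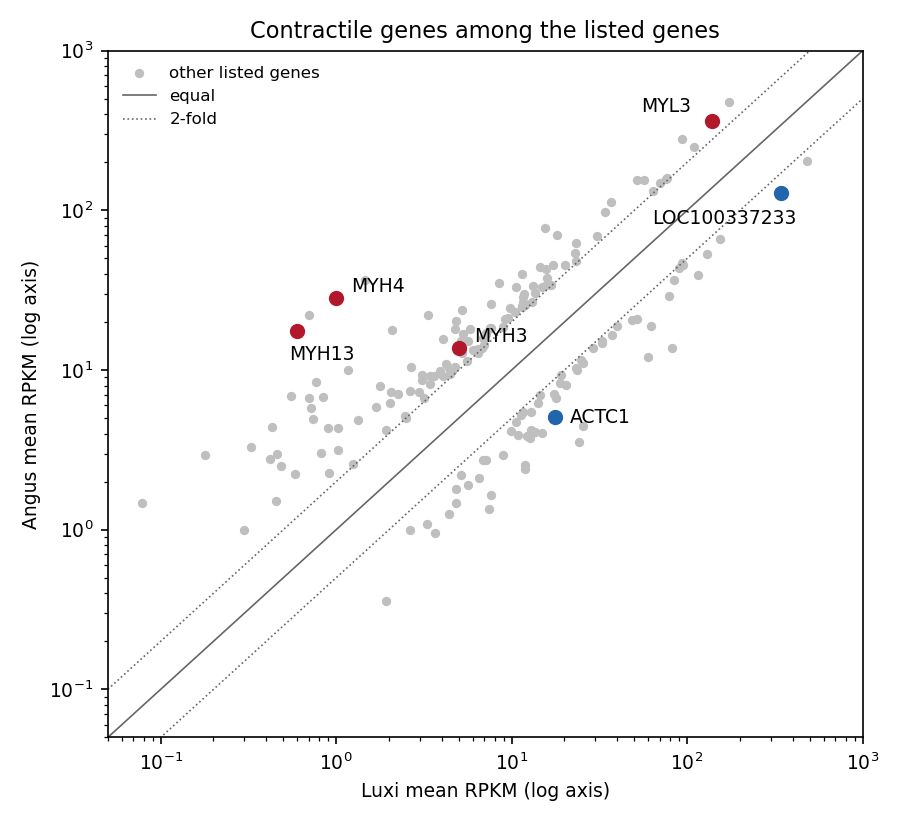
Mean RPKM in Luxi (horizontal, log axis) against mean RPKM in Angus (vertical, log axis) for the 185 listed genes above 0 in both breeds, with the 6 contractile genes named (red, higher in Angus; blue, higher in Luxi). The solid line marks equal levels and the dotted lines a 2-fold difference. MYH4 and MYH13 lie far above the band of Angus genes, while the other 4 lie close to the dotted lines; the Angus mean of MYH13 rests on 1 library.

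The order of the 6 levels differed between the breeds. In Angus the order was MYL3 (365 RPKM), LOC100337233 (128 RPKM), MYH4 (28.3 RPKM), MYH13 (17.6 RPKM), MYH3 (13.8 RPKM) and ACTC1 (5.08 RPKM), by the authors' deposited table. In Luxi the same table gives LOC100337233 (344 RPKM), MYL3 (139 RPKM), ACTC1 (17.6 RPKM), MYH3 (5.02 RPKM), MYH4 (1.00 RPKM) and MYH13 (0.601 RPKM). MYL3 and LOC100337233 thus changed places, and ACTC1 stood last in Angus but above the heavy chains in Luxi. The place of MYH13 in Angus rested on 1 library: with the deepest one left out, a setting chosen after seeing the data, its Angus mean was 0.237 to 0.401 RPKM, and MYH13 stood last, below ACTC1 at 7.16 RPKM. With the deepest Luxi library left out, ACTC1 (5.02 to 7.93 RPKM) still stood above the heavy chains, while MYH3 (1.29 to 1.86 RPKM) and MYH4 (1.03 to 1.43 RPKM) could not be put in order. Among all listed genes MYL3 had the second highest mean in Angus and LOC100337233 the second highest in Luxi. These ranks compare means. In Angus the library ranges of MYH4, MYH13 and MYH3 overlapped, as did those of MYH4 and MYH13 in Luxi and those of MYH3 and ACTC1 in both breeds, so these neighbours did not stand apart beyond the spread of the libraries. For the other neighbours in the order this was not determined. In bulk muscle, fewer fibres of a type and less RNA per fibre cannot be told apart.

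The heavy chains are described first, from fastest to embryonic. MYH13 (gene identifier 511687, 5835 bases in the deposited gene model) had 1765 Angus reads, of which 1739 to 1750 were in the deepest library, 0 to 22 in the middle and 4 to 15 in the shallowest. In Luxi its reads were fully known, at 12, 31 and 19 in the deepest, middle and shallowest library. The deepest Angus library thus stood at 52.0 to 52.3 RPKM, and every other library of either breed at 0.902 RPKM or less. The Luxi libraries were at 0.340, 0.902 and 0.562 RPKM, a mean of 0.601 ± 0.283 (SD, n = 3). The SD of the Angus libraries was 29.8 to 30.1 RPKM, above their mean of 17.6 RPKM. The breeds overlapped in every solution. The log2 ratio of Angus over Luxi was 4.87 with all libraries, and -1.34 to -0.58 once the deepest Angus library was left out, so the direction turned. MYH13 is the gene of an isoform that limb and trunk muscle hardly use, and in 5 of 6 libraries it was below 1 RPKM.

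Of the Angus reads of MYH13, 98.5% to 99.2% lay in the deepest library (exact Clopper-Pearson 95% limits 97.8% and 99.5%, which cover counting error alone). Over 90% of the Angus reads lay in that library for 5 of the 210 genes with Angus reads. The 3 genes nearest to MYH13 by their shares over the 3 Angus libraries, among 63 genes higher in Angus whose shares are known within 10 percentage points, were LOC785805, FBP1 and LOC100141470. LOC785805, described in the list as a collagen chain, had 94.95% of them in the deepest library, and its 3 shares differed from those of MYH13 by 7.77 percentage points in sum. FBP1, an enzyme of gluconeogenesis, had 93.1% there and differed by 11.6 points. LOC100141470, described as similar to an immunoglobulin kappa chain, had 91.0% there and differed by 15.6 points. None of these 3 genes encodes a muscle filament protein. The deepest Angus library was the highest of the 3 for 55 of the 113 genes where this was determined (48.7%). Of the ADIPOQ reads of Angus it held 64.9% to 81.9%, and of the CIDEC reads 62.2%. These are the only 2 of 7 adipocyte genes on the list, and their part in the level of MYH13 was not tested.

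MYH4 (gene identifier 408020, 5820 bases), a fast heavy chain, had 2753 Angus reads and 103 Luxi reads. In Luxi 3 solutions remained. The reads of the deepest, middle and shallowest Luxi library were 5, 85 and 13 in the first, 19, 48 and 36 in the second, or 33, 11 and 59 in the third. No Luxi library therefore exceeded 2.48 RPKM. The Angus reads were far less well known, at 2.34 to 41.8 RPKM in the deepest library, 0 to 81.9 in the middle and 0.475 to 42.9 in the shallowest. The solutions ran from a nearly even split, with 1.03-fold between the highest and lowest Angus library, to one in which the middle library held 96.6% of the reads. The highest Angus library was at 28.5 RPKM or more in every solution, above all Luxi libraries. Whether all 3 Angus libraries were above them was not determined. Leaving out any 1 library kept MYH4 higher in Angus, and the ratio stayed at least 2-fold in every solution for 5 of the 6 libraries. The log2 ratio was 4.82 with all libraries and 0.49 to 5.40 without the middle Angus library.

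Although MYH4 and MYH13 had nearly equal folds, their libraries differed. In the deepest Angus library MYH13 was above MYH4 in every solution, at 52.0 RPKM or more against 41.8 or less. In the shallowest Angus library MYH13 was at 0.126 to 0.473 RPKM and MYH4 at 0.475 RPKM or more. These ranges meet at 15 reads, so equal reads of both genes were possible there. Of the MYH4 reads of Angus, 2.83% to 50.7% were in the deepest library, against 98.5% or more for MYH13.

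MYH3 (gene identifier 281338, 6135 bases), the embryonic heavy chain, was unevenly spread in both breeds. Of its 555 Luxi reads, 421 to 463 lay in the deepest library, 14 to 125 in the middle and 9 to 78 in the shallowest. Of its 1399 Angus reads, 5 to 406 lay in the deepest library, 39 to 848 in the middle and 546 to 954 in the shallowest. The deepest Luxi library was at 11.3 to 12.5 RPKM and the other Luxi libraries at 3.46 RPKM or less, at least 8.58-fold between highest and lowest. In Angus the shallowest library, at 16.4 to 28.6 RPKM, was above the deepest, at 0.142 to 11.5 RPKM, and highest and lowest were at least 3.07-fold apart. The SD over libraries was 8.32 to 13.9 RPKM in Angus around a mean of 13.8, and 5.71 to 6.52 RPKM in Luxi around a mean of 5.02. The lowest Angus library, at 8.15 RPKM or less, was below the deepest Luxi library in every solution, so the breeds overlapped. MYH3 nevertheless stayed higher in Angus without any 1 library. Its log2 ratio was 1.46 with all libraries, 0.34 to 1.31 without the shallowest Angus library and 2.89 to 3.42 without the deepest Luxi library.

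**Figure D2:**
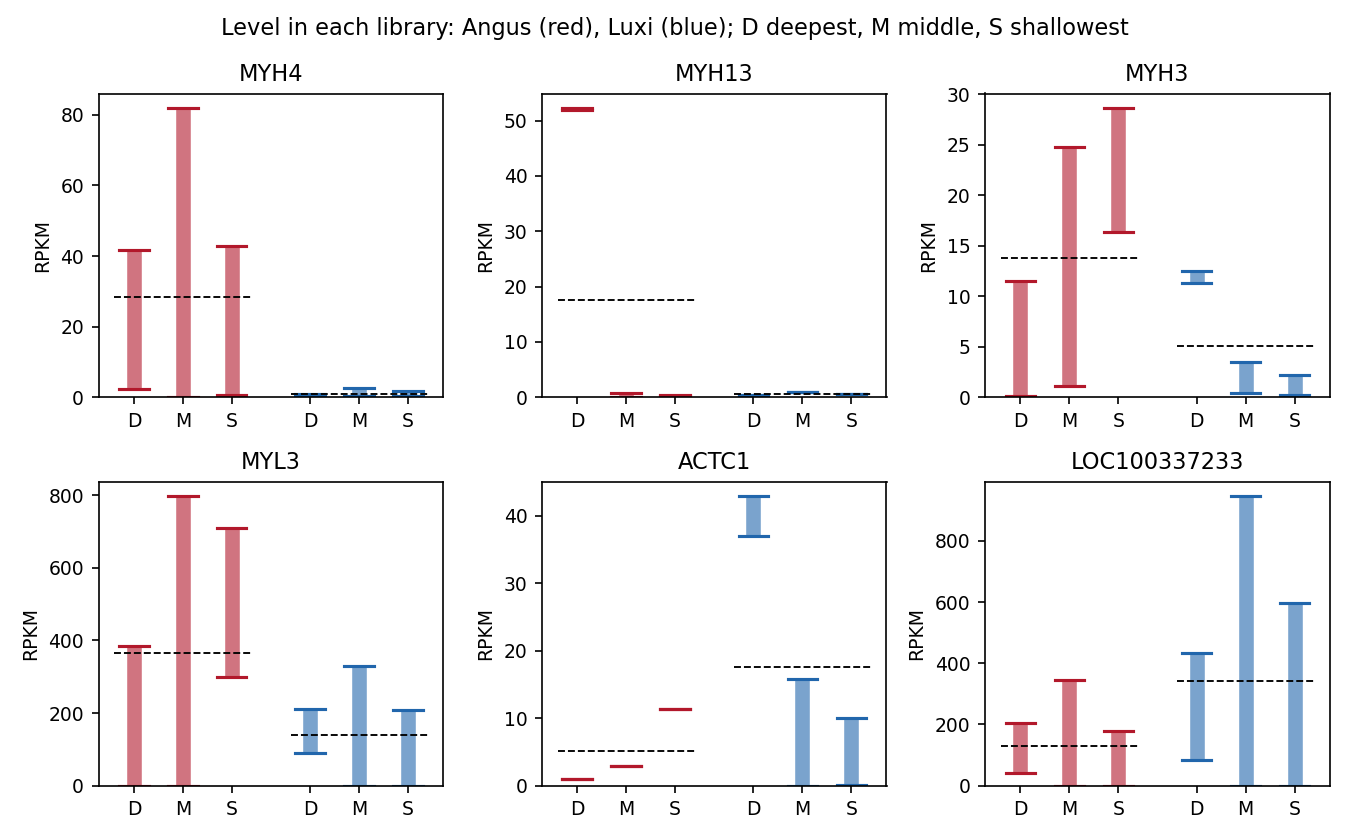
RPKM (vertical, linear from 0) of the 6 contractile genes in each Angus library (red) and Luxi library (blue), ordered deepest (D), middle (M) and shallowest (S) within a breed. Each bar spans the lowest to the highest value over all whole-read solutions, a thin line is a value known exactly or nearly so, and the dashed line is the authors' deposited breed mean. MYH13 is high in the deepest Angus library alone, and MYH3 and ACTC1 are both highest among Luxi libraries in the deepest.

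ACTC1 (gene identifier 533219, 1510 bases), the cardiac and developmental actin, had 126 Angus reads that were fully known, 8 in the deepest, 25 in the middle and 93 in the shallowest library. These are 0.924, 2.97 and 11.3 RPKM, a mean of 5.08 ± 5.52 (SD, n = 3). The shallowest Angus library held 73.8% of them (exact Clopper-Pearson 95% interval 65.2% to 81.2%). Of its 479 Luxi reads, 338 to 391 lay in the deepest library, 0 to 140 in the middle and 1 to 88 in the shallowest, which are 37.0 to 42.8, 0 to 15.7 and 0.114 to 10.05 RPKM. The lowest Luxi library was at 5.37 RPKM or less, below the shallowest Angus library, so the breeds overlapped in every solution. The log2 ratio of Angus over Luxi was -1.79 with all libraries. Without the deepest Luxi library it was -0.64 to 0.02, and without the shallowest Angus library it was -3.18.

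MYH3 and ACTC1, the developmental forms of heavy chain and actin, went opposite ways between the breeds but were both highest in the same Luxi library. In Luxi, the deepest library held 75.9% to 83.4% of the MYH3 reads and 70.6% to 81.6% of the ACTC1 reads. Over 2/3 of the Luxi reads lay in that library for 12 of the 207 genes with Luxi reads, these 2 among them. In Angus, the shallowest library held 39.0% to 68.2% of the MYH3 reads and 73.8% of the ACTC1 reads, while the deepest library held at most 29.0% and 6.35%. The middle Angus library held 2.79% to 60.6% of the MYH3 reads and 19.8% of the ACTC1 reads. In the deepest Luxi library ACTC1 exceeded MYH3, at 37.0 RPKM or more against 12.5 or less. In the shallowest Angus library MYH3 exceeded ACTC1, at 16.4 RPKM or more against 11.3. The pairing of highest libraries was determined in both breeds for 42 genes, and for 5 of them, ACTC1 included, these were the shallowest Angus and the deepest Luxi library. For MYH3 the highest Angus library was not determined.

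Connective tissue genes were high in the same Luxi library. It held 51 of the 64 Luxi reads of COMP, a tendon and cartilage matrix protein, and 148 of the 164 Luxi reads of PRG4, or lubricin. These were the 2 of 10 connective tissue genes on the list, and COMP was listed at 0 in Angus. In the shallowest Angus library PRG4 was at 0.470 RPKM, against 5.20 RPKM in the deepest Luxi library, while MYH3 was higher in the former than in the latter. Within each breed, PRG4 was highest in the same libraries as ACTC1, the shallowest Angus and the deepest Luxi one. Its 28 Angus reads were few, at 6, 10 and 12 in the deepest, middle and shallowest library. The heart list had 0 of its 6 genes on the list of differences, and the levels of genes outside that list are not known. NCAM1, a cell adhesion protein of nerve that immature and regenerating fibres also carry, had means of 5.17 RPKM in Angus and 2.46 RPKM in Luxi by the authors' deposited table, a 2.10-fold difference. The deepest Luxi library held 17.0% to 31.9% of the Luxi reads of NCAM1, and the shallowest Angus library held 12.5% to 42.1% of its Angus reads. The part of connective tissue, nerve, or immature and regenerating fibres in the levels of MYH3 and ACTC1 was not tested.

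**Figure D3:**
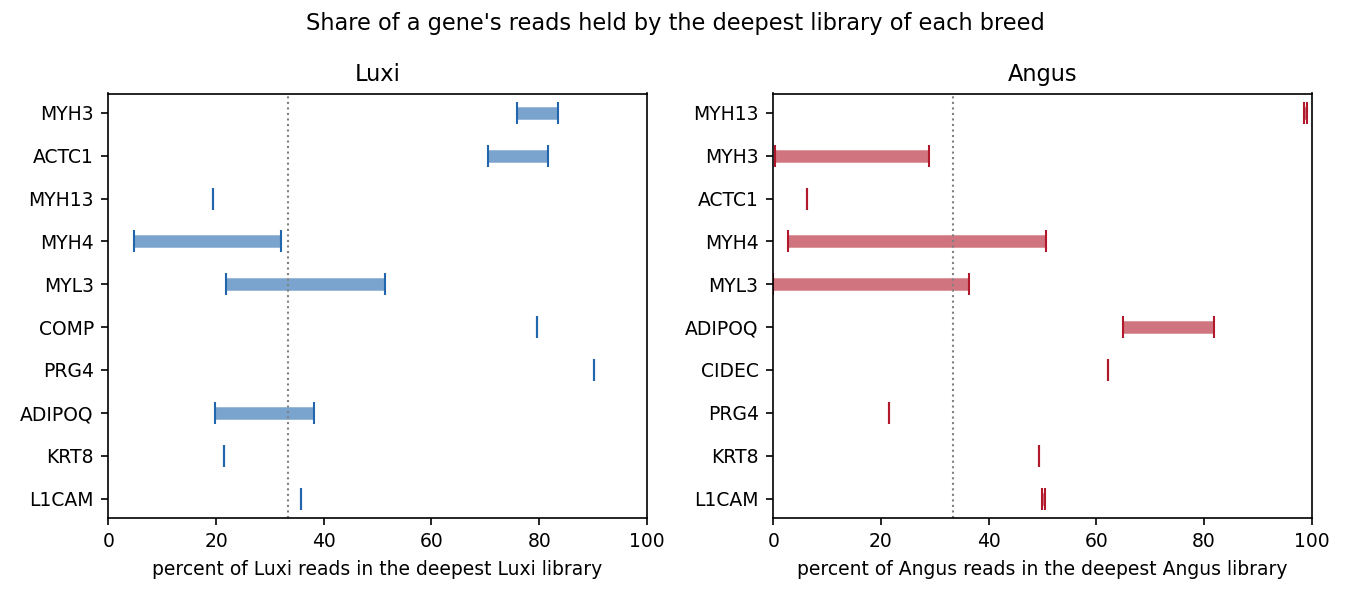
Percent of a gene's Luxi reads in the deepest Luxi library (left) and of its Angus reads in the deepest library of Angus (right) for 5 contractile genes and for marker genes of connective tissue (COMP, PRG4), fat (ADIPOQ, CIDEC), epithelium (KRT8) and nerve (L1CAM). Bars span the range over all solutions, a tick without a bar is a share known exactly or nearly so, and the dotted line marks equal libraries. MYH3, ACTC1, COMP and PRG4 lie above 70% on the left, and MYH13 lies above 98% on the right.

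MYL3 (gene identifier 618352, 949 bases), the essential light chain of slow fibres and heart, had 5754 Angus and 2348 Luxi reads. Its Angus libraries were at 0 to 384 RPKM (deepest), 0.189 to 797 RPKM (middle) and 298 to 711 RPKM (shallowest). Its Luxi libraries were at 89.0 to 210 RPKM (deepest), 0 to 328 RPKM (middle) and 0.182 to 208 RPKM (shallowest). The shallowest Angus library was thus above the deepest and the shallowest Luxi library in every solution. The Angus libraries were uneven in every solution, with at least 2.23-fold between the highest, at 469 RPKM or more, and the lowest, at 259 RPKM or less. An even split was closer to possible in Luxi, where the smallest difference was 1.28-fold. Whether the breeds overlapped was not determined. MYL3 stayed higher in Angus without any 1 library, with a log2 ratio of 1.39 in full and of 0.10 to 1.98 without the middle Angus library.

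The slow heavy chain gene itself was represented on the list by a fragment. A cluster of expressed sequence tags (ESTs) of 1322 bases, whose best deposited protein match is myosin-7, the product of MYH7, stands in the authors' deposited table at 163 RPKM in Angus and at 0 in Luxi. Its 3592 Angus reads came with 53.5 to 279 RPKM in the shallowest Angus library, 0.396 to 210 in the deepest and 0 to 435 in the middle. Against the limit of 3 reads over the 3 Luxi libraries together, its level was at least 1268-fold higher in Angus. In the same Luxi libraries MYL3, the light chain that pairs with MYH7 in slow fibres, had a mean of 139 RPKM. The list has no entry with the symbol MYH7, and that gene was not analysed here. An EST cluster can take part of the reads of the gene it belongs to, so its level is not that of MYH7.

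LOC100337233 (8892 bases) had the most reads of the 6 genes, 19146 in Angus and 54103 in Luxi. It was the longest gene of the group, and the authors' deposited table gives it a length-scaled mean of 128 RPKM for Angus and 344 RPKM for Luxi. The list describes it as similar to IGFN1, a protein of the sarcomere's Z-disc. Its identifier was not in the RefSeq table, where 5 of the 6 genes were found, and no name is given to it here beyond that description. The Angus libraries were at 40.2 to 206 RPKM (deepest), 0 to 345 RPKM (middle) and 0 to 179 RPKM (shallowest), and the Luxi libraries at 85.3 to 434, 0 to 945 and 0 to 597 RPKM in the same order. The highest and lowest libraries differed by at least 1.27-fold in Angus and 1.22-fold in Luxi. The highest Luxi library was at 366 RPKM or more, above every possible level of the Angus libraries, the highest of which was 345 RPKM. Overlap of the breeds was otherwise not determined. It stayed higher in Luxi without each library but the middle Luxi one, where the log2 ratio was -2.01 to 1.59, against -1.42 in full.

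**Figure D4:**
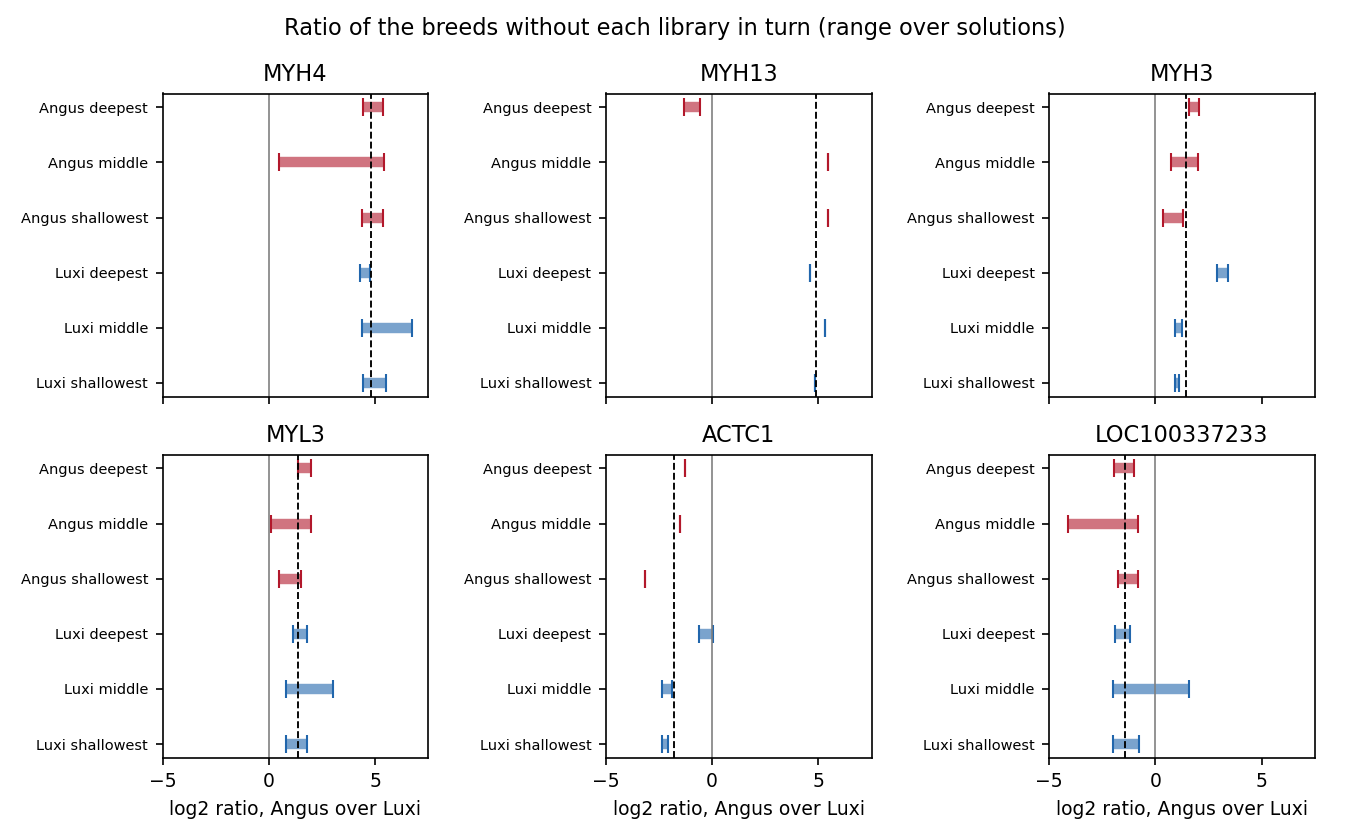
Log2 ratio of Angus over Luxi (horizontal) of the 6 contractile genes when the library named at the left is left out (red, an Angus library; blue, a Luxi library). Bars span the range over all solutions, the dashed line is the ratio with all libraries and the grey line marks equal levels. MYH13 crosses to the other side without the deepest Angus library, and ACTC1 reaches equal levels without the deepest Luxi library.

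Over the 6 genes, the libraries of the breeds overlapped in every solution for 3, MYH13, MYH3 and ACTC1, and were not determined to overlap or stand apart for the other 3. Over the list, 25.0% of genes overlapped in every solution and 27.2% stood apart in every solution, and no contractile gene was among the latter. For 111 of the 232 listed genes this was not determined. Genes with many reads have many solutions, so the call depends on the reads of a gene as well as on its libraries. In MYH13 and ACTC1 a single library held over 2/3 of what the higher breed had in reads, in every solution, as in 14.7% of the listed genes. The direction held in every solution without any 1 of the 6 libraries for MYH3, MYH4 and MYL3.

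The other genes of contraction on the list were few. Of 13 fast fibre genes MYH4 alone was listed, of 13 slow fibre genes MYL3 and the myosin-7 fragment, of 9 embryonic, neonatal and cardiac-type genes MYH3 and ACTC1, and of 5 heavy chain genes of eye, jaw and related muscle MYH13. Of 36 sarcomere genes shared by fibre types, none was listed by symbol and 2 by EST clusters. IGFN1 is also among the 36. LOC100337233, described as similar to it, is not in this count and was higher in Luxi, at 344 RPKM against 128 RPKM in Angus. A cluster of ESTs matched FHL1, a sarcomere protein built of LIM domains, and the authors' deposited table gives it 475 RPKM for Angus and 174 RPKM for Luxi. Another matched KLHL41 (deposited as KBTBD10), a kelch protein needed for myofibril assembly, with 133 RPKM for Angus and 64.0 RPKM for Luxi by the authors' deposited table. Both favoured Angus, at log2 ratios of 1.45 and 1.06, and neither had determined reads per library. None of 13 smooth muscle and non-muscle contractile genes was listed. Genes of these lists that are missing from the table were not analysed here, and this does not show that they did not differ.

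The deposited gene ontology terms were used to look for further listed genes of contraction. The 6 genes were picked for their part in contraction, so that they carry such terms follows largely from that choice. A term naming myosin, actin filaments, the sarcomere or its bands, myofibrils or muscle contraction stood beside 11 listed genes, the 6 contractile genes and 5 others. Of these 5, 4 were higher in Angus and 1 in Luxi, and 3 are described here. The keratins KRT8 and KRT19, which carried the I band term, were 8.04-fold and 3.69-fold higher in Angus from the RPKM columns of the authors' deposited table. Another was the cluster matching KLHL41.

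The heavy chain genes of the cluster are close in sequence, as are the muscle actins, and the sources used here do not say how reads that match several genes were counted. A split of reads between MYH4, MYH13, MYH3 and their neighbours MYH1, MYH2 and MYH8, or between ACTC1 and other actins, was not tested, and the levels of these genes are uncertain to that extent.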

How the data were processed

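RNA of muscle from 3 Angus and 3 Luxi cattle was sequenced on a HiSeq2000, per the labels' protocols. The authors deposited 1 table of the 232 genes that passed their filter. It holds, per the file headers, a read count and an RPKM for each breed, a log2 ratio of Luxi over Angus, and a p-value and FDR. Every deposited count was a whole multiple of 1/3, within rounding, so what the authors deposited is taken as a mean raw count of 3 libraries and not as an estimated count from a model. The deposited RPKM is a mean over 3 libraries, with 0.001 where the count is 0. The sources used here do not give the aligner, gene set, build, strandedness, test or handling of reads that match several genes.

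Reads per library were worked back by a search over library depths, since the mean count fixes the summed reads and the mean RPKM, printed to 6 digits, weights them by depth. In each breed 1 set of depths gave whole reads for every gene with reads (210 in Angus, 207 in Luxi), known to within 4 reads. A statement was made only where all solutions shared it. On 4 simulated tables (831 genes) the simulated reads were always among the possible solutions, for 831, and 251 of 251 genes with 1 solution were right.

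No test was run, because the genes were chosen from a list made on this contrast. The genes and gene lists were chosen with earlier results of these data known. All 6 genes are named, with contractile list genes in the table and the 3 genes nearest to a member by library shares known within 10 points. Exact Clopper-Pearson intervals are at 95%. No protein or promoter sequence was used here. Alternatives were a pseudocount of 1 RPKM, a filter at 1 RPKM in both breeds, mean counts in place of RPKM, the median library, and leaving out each library. Python 3.11.15, numpy 2.4.6, scipy 1.17.1 and numba 0.67.0 were used.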

Additional observations from a re-analysis of the deposited data

How the results depend on the processing

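The count of 4 contractile genes higher in Angus was 4 with a pseudocount of 1 RPKM and with mean counts, 3 with at least 1 RPKM in both breeds, where MYH13 drops out, and 3 to 4 when any 1 library was left out. The count of 6 genes at least 2-fold apart was 6, 6 and 5 under the same first 3 settings. When 1 library was left out, 2 to 5 genes were at least 2-fold apart in every solution, fewest without the middle Angus library (2). Without the shallowest Angus, the middle Luxi or the shallowest Luxi library it was 3. Genes whose ratio was not determined are left out of these counts. The log2 ratio of MYH13 fell from 4.87 to between -1.34 and -0.58 without the deepest Angus library and was at most 5.46 without another, and the median libraries gave -0.83 to 0.27. ACTC1 ranged from -3.18 to 0.02 over the libraries left out, the latter without the deepest Luxi library. LOC100337233 ranged from -4.10 to 1.59, the latter without the middle Luxi library, and its median libraries gave -3.43 to 1.07. A pseudocount of 1 RPKM lowered the log2 ratios of MYH4 and MYH13 to 3.87 and 3.54. The median libraries of MYH3 gave a log2 ratio of 1.24 to 3.59, those of MYH4 1.13 to 6.76, those of MYL3 0.32 to 2.40 and those of ACTC1 -2.41 to -1.32. No paired analysis was possible because the deposited columns are breed means, the labels number the animals without pairing them, and no test was run. Precision is limited by what the means fix: genes with many reads have many solutions, and the middle library is known least.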

Other observations

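The p-values of the authors' deposited table did not follow the reads of these genes. LOC100337233, with mean counts of 6382 in Angus and 18034 in Luxi, has a p of 2.26e-11 in the authors' deposited table, and ACTC1, with 42.0 and 160, a p of 9.95e-14. MYH3, with 466 and 185, has 1.00e-32, and MYL3, with 1918 and 783, has 5.31e-124, in the authors' deposited table. The same table gives MYH13, with 588 and 20.7, a p of 7.93e-154 and MYH4, with 918 and 34.3, a p of 1.01e-235.

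A second EST cluster of 944 bases matched NCAM1 in the authors' deposited table and was listed at 0 in Luxi. Its 45 Angus reads were fully known, with 20, 15 and 10 in the deepest, middle and shallowest library, which is at least 15.9-fold above the limit of 3 reads over the 3 Luxi libraries. NCAM1 itself had 188 Luxi reads.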
